A study of Mus musculus with 6 samples.

Results

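The 10 genes described here encode major structural proteins of the basement membrane: the collagen IV chains Col4a1, Col4a2, Col4a5 and Col4a6, collagen XVIII (Col18a1), the nidogens Nid1 and Nid2, the laminin chains Lamb1 and Lamc1, and perlecan (Hspg2). They were taken as a named list, and every probe that the array annotation gives to one of them alone was used. This gave 16 of the 46120 targets on the array and 10 of the 17658 named genes. The levels were read in mouse embryonic fibroblasts of 3 groups with 2 samples and 2 arrays each. These were reconstituted cells, labelled IKKa+/+reconstituted, IKKa-null cells, labelled IKKa-/-, and wild-type cells. All 3 groups were grown to subconfluence in medium with foetal calf serum, with no other treatment given in the labels. Total RNA was hybridised to Illumina bead arrays, 1 array per sample. The labels do not name the vector or the form of IKKa used for reconstitution, nor say whether a line is a clone or comes from pooled embryos.

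A basement membrane is a thin sheet of matrix that lies under epithelia and endothelia and around muscle, fat and Schwann cells. Laminin trimers and collagen IV trimers each assemble into a network, and nidogens and the heparan sulfate proteoglycan perlecan bind both. Fibroblasts make and secrete several of these proteins, nidogens among them. IKKa, encoded by Chuk, phosphorylates components of NF-kB signalling, acts in the processing of the NF-kB2 precursor and also has roles in the nucleus. The comparisons address which genes differ between cells labelled with different IKKa states, which also differ in other ways given below.

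The median intensity of an array lay between 111.1 and 123.1 units and the median of 394 background probes between 100.8 and 114.45. A probe was called detected on an array when under 1% of the background probes reached its signal, which put the floor between 152.6 and 178.0 units. Tests were made on 11666 probes, those detected on 2 or more arrays. The replicates of a group correlated across probes with r = 0.9681 in reconstituted, 0.9745 in IKKa-null and 0.9794 in wild-type cells. No probe carries the symbol of Chuk in the annotation used, so the labels could not be checked on the gene they name. Sequences of constructs separated the groups. The target for SV40 large T antigen gave 212.3 and 203.2 units in reconstituted cells, was not above background in IKKa-null cells (88.6 and 111.8) and gave 4432 and 6076 units in wild-type cells. The neomycin resistance target gave 3458 and 2638 units in reconstituted and 2433 and 2231 in IKKa-null cells, and was at background in wild-type cells (106.5 and 117.8). The 5′ LTR of Moloney murine sarcoma virus gave 292.0 and 219.5 units in reconstituted, 3261 and 3525 in IKKa-null and background values in wild-type cells (94.1 and 119.2). These differences lie between the same groups as IKKa, so their part in any result below cannot be told apart from that of IKKa. Sex-linked RNAs also separated wild-type cells from both other groups. Xist, an X-linked RNA, gave 528.6 and 408.4 units in wild-type cells and background values in both other groups. The Y-linked Eif2s3y was at background in wild-type cells (101.6 and 120.8) and detected on all arrays of both other groups. Each comparison with wild-type cells is thus also one across this difference, whose part was not tested. The labels do not say that replicates were separate cultures, so the spread behind the p-values may be technical.

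Of the 16 probes, 10 were tested, for 9 of the 10 genes. The 6 others were the Lamb1 probe, detected on 1 array, and probes 2 to 4 of Col4a6, probe 2 of Col18a1 and probe 2 of Nid1, each detected on 0 arrays. Differences are log2 differences between group means from limma, with p-values adjusted by Benjamini-Hochberg over all tested probes, and "called" means an adjusted p under 0.05. In IKKa-null against wild-type cells, 1 of the 10 tested probes was called higher and 6 lower, where 28.9% of all tested probes were called, 14.9% higher and 14.0% lower. In reconstituted against IKKa-null cells, 2 were called higher and 3 lower, against 13.3% of all probes (6.45% higher, 6.86% lower). In reconstituted against wild-type cells, 1 was called higher and 4 lower, against 36.3% of all probes (17.4% higher, 19.0% lower). The median log2 difference of the 10 probes was -1.16, 0.03 and -0.18 in these 3 comparisons, against -0.07, -0.01 and -0.08 over all tested probes. The comparisons share arrays in pairs, so they are not independent of one another. The genes did not move as a block: Col4a1 and Col4a2 were lowest in reconstituted cells, Nid1 and Col4a6 were lowest in IKKa-null cells, and Col18a1 was lowest in wild-type cells.

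**Figure D1:**
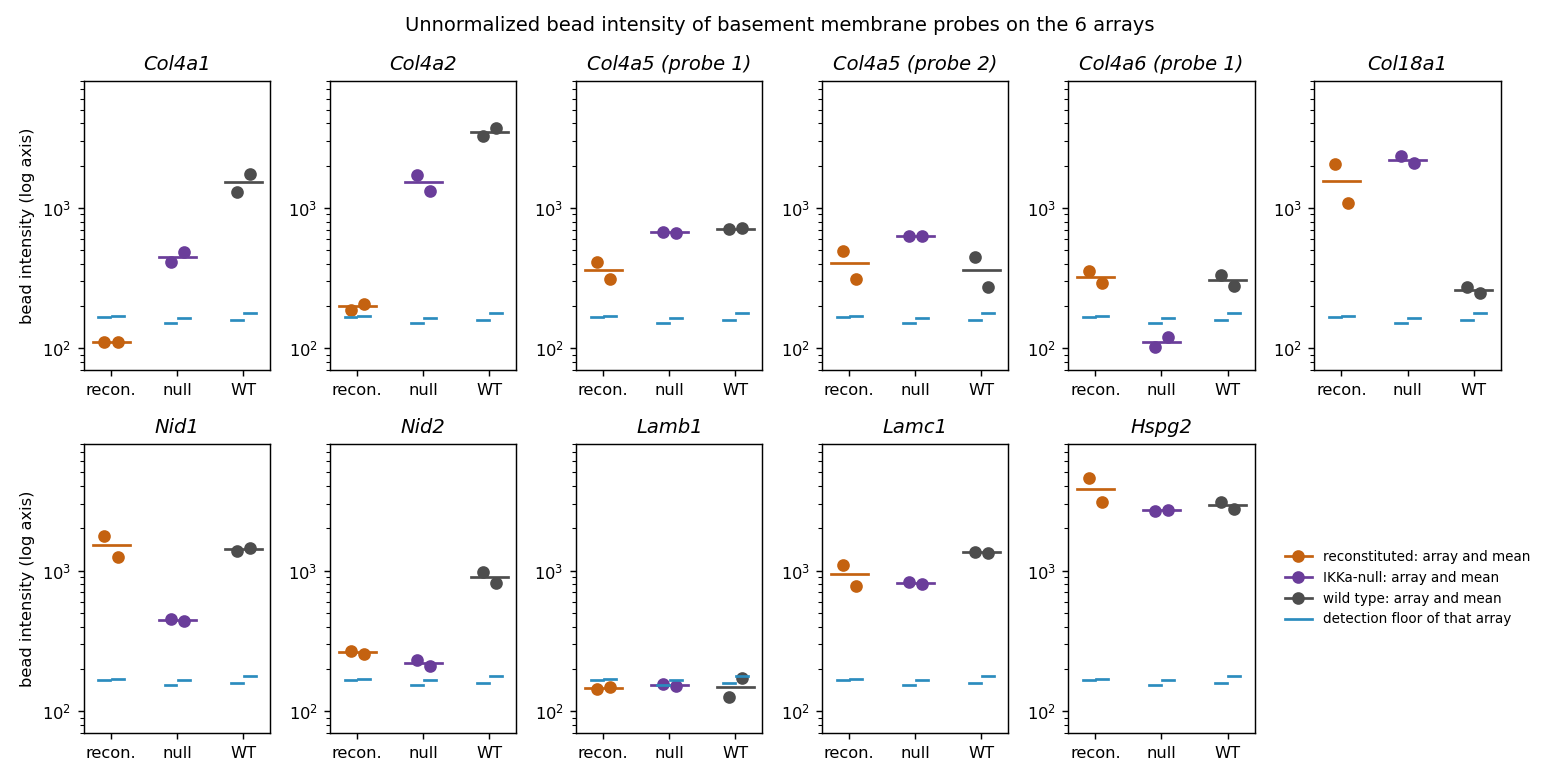
Unnormalized bead intensity (log axis) of the 10 tested probes and the Lamb1 probe in reconstituted, IKKa-null and wild-type (WT) cells. Each point is 1 array, the coloured line is the mean of the group's 2 arrays and the blue line is the detection floor of that array. Col4a1 lies below the floor in reconstituted cells, Col4a6 below it in IKKa-null cells, and Lamb1 close to it everywhere.

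**Figure D2:**
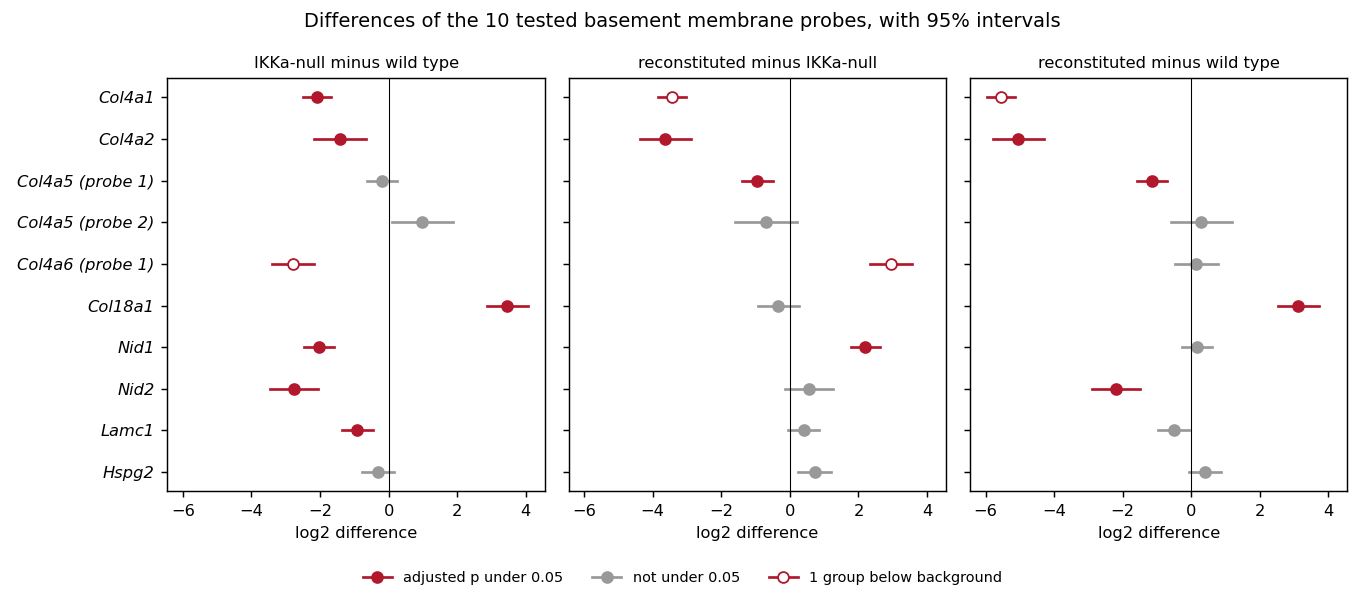
Log2 differences of the 10 tested probes with 95% intervals in the 3 comparisons, with IKKa-null minus wild type on the left and both reconstituted comparisons beside it. Red marks an adjusted p under 0.05, grey all others, and open circles a probe that is not above background on both arrays of 1 group. Col18a1 is the 1 called probe to the right of 0 in both comparisons with wild type, and Col4a6 and Nid1 are the called ones to the right of 0 in the comparison of reconstituted with IKKa-null cells, where 3 called probes lie to the left.

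Col4a1 and Col4a2 encode the alpha 1 and alpha 2 chains, which form the collagen IV trimer found in nearly all basement membranes. They lie head to head on mouse chromosome 8, Col4a1 at 11198423 to 11312889 on the minus strand and Col4a2 at 11312805 to 11449287 on the plus strand in GRCm38.p6, so that the annotated genes overlap by 85 bases. The array files name no build, and these coordinates and the sequences below are RefSeq's. The promoter windows of both genes, 250 bases before to 50 after the annotated start, are shown because both genes moved together and share this stretch. Each is read 5′ to 3′ on the strand of its own gene, Col4a1 at chr8:11312777-11313076 (minus) and Col4a2 at chr8:11312555-11312854 (plus), and the 78 bases that lie in both windows are in capitals.
Col4a1: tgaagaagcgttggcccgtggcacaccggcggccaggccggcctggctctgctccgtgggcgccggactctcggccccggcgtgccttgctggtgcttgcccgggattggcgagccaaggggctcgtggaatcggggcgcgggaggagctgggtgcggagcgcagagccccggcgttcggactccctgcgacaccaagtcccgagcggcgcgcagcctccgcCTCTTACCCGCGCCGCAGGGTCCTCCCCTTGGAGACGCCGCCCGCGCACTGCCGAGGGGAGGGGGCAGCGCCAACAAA
Col4a2: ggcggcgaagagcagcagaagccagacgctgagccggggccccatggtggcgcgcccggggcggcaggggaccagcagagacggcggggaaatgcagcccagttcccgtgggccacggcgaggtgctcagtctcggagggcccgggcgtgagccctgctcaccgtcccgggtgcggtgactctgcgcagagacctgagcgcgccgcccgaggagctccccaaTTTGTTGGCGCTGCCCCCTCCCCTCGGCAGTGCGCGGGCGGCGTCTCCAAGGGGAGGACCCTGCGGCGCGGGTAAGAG
The starts that set the windows, 11312826 for Col4a1 and 11312805 for Col4a2, are 21 bases apart. The Col4a1 start used here lies inside the gene span given above, which ends at 11312889. The 85-base overlap is counted from that end and not from this start. The G and C content was 74.0% in the Col4a1 window and 73.7% in the Col4a2 window, against a median of 52.7% over all windows of this length. Both strands were searched for 5 short motifs, and matches of different motifs may share bases. CCAAT was found 1 time in each window, as in 37.4% of 32851 windows. The GC box GGGCGG was found 1 time in the Col4a1 and 3 times in the Col4a2 window, with a match in 35.7% of all windows. The consensus site of NF-kB was found 0 times in the Col4a1 and 1 time in the Col4a2 window, 40 bases before the annotated start, with a match in 8.46% of all windows. TATAAA and the AP-1 type motif TGANTCA were in neither window, and they were in 13.6% and 7.81% of all windows. Among the 9 windows that the table holds for 8 of the 10 genes, 6 had CCAAT, 8 had GGGCGG, 1 had the NF-kB consensus, and 0 had TATAAA or TGANTCA. A match of letters is a description and not a bound site.

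Col4a1 gave 111.8 and 111.2 intensity units on the reconstituted arrays, 414.1 and 487.7 on the IKKa-null arrays and 1296 and 1738 on the wild-type arrays. Wild-type cells were highest, IKKa-null cells intermediate, and both reconstituted arrays lay below the detection floor, with no overlap between any pair of groups. On the normalized log2 scale the means were 4.94 ± 0.0093 in reconstituted, 8.39 ± 0.09 in IKKa-null and 10.48 ± 0.14 in wild-type cells (SD, n = 2 each). Col4a1 fell 4.28-fold in IKKa-null against wild-type cells (log2 difference -2.10, SE 0.17, adjusted p = 0.000457 by limma). In reconstituted cells, where the probe was not above background, it was at least 4.51-fold lower than in IKKa-null cells (adjusted p = 0.000131 by limma). It was at least 19.3-fold lower than in wild-type cells (adjusted p = 2.14e-05 by limma). Where a group was not above background, each of its arrays entered the fold at the lowest detected signal of that array, which makes the fold a lower bound on the background-corrected scale only. Folds of dim probes depend on that correction: without it, Col4a1 was 3.87-fold lower in reconstituted than in IKKa-null cells and 13.7-fold lower than in wild-type cells.

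Col4a2 followed the same order. Its intensities were 189.1 and 208.6 units on the reconstituted arrays, 1722 and 1316 on the IKKa-null arrays and 3234 and 3684 on the wild-type arrays. The groups did not overlap, and the reconstituted arrays stayed just above the detection floor of 166.5 and 169.8 units. Col4a2 fell 12.4-fold in reconstituted against IKKa-null cells (log2 difference -3.63, SE 0.31, adjusted p = 0.000786 by limma). It fell 33.1-fold in reconstituted against wild-type cells (-5.05, adjusted p = 0.000154 by limma). Without background correction these falls were 6.97-fold and 17.8-fold. The fall in IKKa-null against wild-type cells was 2.67-fold (-1.42, SE 0.31, adjusted p = 0.0171 by limma). That last call was lost without IKKa-null replicate 2 (adjusted p = 0.0963), wild-type replicate 1 (0.0762) or wild-type replicate 2 (0.0765), with the direction kept. Across the 6 arrays, Col4a1 and Col4a2 correlated with r = 0.9833, a description over 6 points that share their arrays.

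Col4a5 and Col4a6 encode the alpha 5 and alpha 6 chains, which trimerise with each other and, in the case of alpha 5, with the alpha 3 and alpha 4 chains of the kidney glomerulus. They form the other head-to-head pair here, on the X chromosome, Col4a6 at 141165403 to 141474095 and Col4a5 at 141475370 to 141689236 in GRCm38.p6, with 1274 bases between them. Unlike Col4a1 and Col4a2, this pair did not show a shared order of levels. Col4a6 probe 1 gave 355.5 and 292.5 units on the reconstituted arrays, 102.5 and 120.1 on the IKKa-null arrays and 332.7 and 277.4 on the wild-type arrays. The IKKa-null arrays alone were below the detection floor, and the reconstituted and wild-type arrays overlapped. Col4a6 was at least 3.37-fold lower in IKKa-null cells than in wild type (log2 difference -2.79, SE 0.26, adjusted p = 0.000754 by limma). It was at least 3.74-fold higher in reconstituted than in IKKa-null cells (2.94, adjusted p = 0.000847 by limma). Without background correction these folds were 2.78 and 2.98, below the bounds. Between reconstituted and wild-type cells the difference was 0.15 with a 95% interval of -0.47 to 0.77 (adjusted p = 0.673 by limma). The 3 other Col4a6 probes were at background on all arrays, probe 2 for example at 123.3 and 121.1 units in reconstituted, 96.3 and 92.8 in IKKa-null and 142.0 and 165.4 in wild-type cells, so the Col4a6 result rests on 1 of 4 probes.

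The 2 probes of Col4a5 disagreed. Probe 1 gave 415.1 and 313.0 units in reconstituted, 678.7 and 664.9 in IKKa-null and 712.4 and 714.8 in wild-type cells, with reconstituted cells below both other groups. Its difference was -0.95 in reconstituted against IKKa-null cells, a 1.93-fold fall (SE 0.19, adjusted p = 0.0199 by limma), and -1.14 against wild-type cells, a 2.21-fold fall (adjusted p = 0.00494 by limma). The first of these calls was lost when any 1 of the 4 arrays compared was left out, with adjusted p-values of 0.0619 to 0.118. In IKKa-null against wild-type cells probe 1 differed by -0.19 (95% interval -0.63 to 0.25). Probe 2 gave 494.2 and 311.0 units in reconstituted, 633.9 and 630.9 in IKKa-null and 449.9 and 274.9 in wild-type cells, where the 2 replicates lay far apart. None of its 3 differences was called, and its IKKa-null minus wild-type difference of 0.98 (95% interval 0.09 to 1.88, adjusted p = 0.0929 by limma) was called in 5 alternative settings. Since both genes are X-linked, Xist, the RNA that coats the inactive X chromosome of female cells, was read beside them. It was at background in reconstituted cells (123.0 and 126.5 units) and in IKKa-null cells (125.2 and 116.7), against 528.6 and 408.4 units in wild-type cells. Its part in the Col4a5 and Col4a6 results was not tested.

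Col18a1 encodes collagen XVIII, a basement membrane collagen that carries heparan sulfate and whose C-terminal fragment is endostatin. The gene lies on chromosome 10 at 77052178 to 77166530. It moved opposite to the other called members in both comparisons with wild-type cells. Probe 1 gave 2046 and 1087 units on the reconstituted arrays, 2323 and 2075 on the IKKa-null arrays and 275.4 and 249.0 on the wild-type arrays. Wild-type cells were low but above background, and both other groups were several-fold higher with no overlap with wild type. Col18a1 rose 11.0-fold in IKKa-null against wild-type cells (log2 difference 3.46, SE 0.25, adjusted p = 0.000296 by limma) and 8.68-fold in reconstituted against wild-type cells (3.12, adjusted p = 0.00039 by limma). The reconstituted minus IKKa-null difference was -0.34 with a 95% interval of -0.94 to 0.25 (adjusted p = 0.417 by limma). Probe 2 of Col18a1 stayed at background, between 89.9 and 105.6 units on the 6 arrays, so this result also rests on 1 probe.

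Nidogens are the linker proteins that join the laminin network to collagen IV. Nid1, on chromosome 13 at 13437602 to 13512275, was low in IKKa-null cells alone. Its intensities were 1767 and 1259 units in reconstituted, 452.7 and 439.7 in IKKa-null and 1378 and 1452 in wild-type cells. IKKa-null arrays were below all 4 others, and the reconstituted and wild-type arrays overlapped in intensity. Nid1 fell 4.08-fold in IKKa-null against wild-type cells (log2 difference -2.03, SE 0.18, adjusted p = 0.00064 by limma). It rose 4.61-fold in reconstituted against IKKa-null cells (2.20, SE 0.18, adjusted p = 0.000635 by limma). The reconstituted minus wild-type difference was 0.18 with a 95% interval of -0.26 to 0.61 (adjusted p = 0.477 by limma). The other Nid1 probe was at background on all 6 arrays.

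Nid2, on chromosome 14 at 19751257 to 19811787, encodes the second nidogen, and its levels had another order. It gave 269.8 and 257.0 units in reconstituted, 232.9 and 208.7 in IKKa-null and 980.8 and 821.6 in wild-type cells. Wild-type cells were high, and both other groups were low and above the detection floor. Nid2 fell 6.75-fold in IKKa-null against wild-type cells (log2 difference -2.75, SE 0.30, adjusted p = 0.0013 by limma) and 4.59-fold in reconstituted against wild-type cells (-2.20, adjusted p = 0.00261 by limma). Without background correction the fall in IKKa-null against wild-type cells was 4.20-fold. The reconstituted minus IKKa-null difference was 0.56 with a 95% interval of -0.15 to 1.26 (adjusted p = 0.271 by limma).

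Lamc1, on chromosome 1 at 153218922 to 153332786, encodes the laminin gamma 1 chain, which is part of most laminin trimers. It gave 1097 and 780.0 units in reconstituted, 835.6 and 803.0 in IKKa-null and 1364 and 1341 in wild-type cells. Wild-type arrays were the highest, and reconstituted and IKKa-null arrays overlapped in intensity. Lamc1 fell 1.88-fold in IKKa-null against wild-type cells (log2 difference -0.91, SE 0.19, adjusted p = 0.014 by limma). That call was lost with median scaling (adjusted p = 0.145), without wild-type replicate 1 (0.0775) or without IKKa-null replicate 2 (0.0847). Its other differences were 0.41 (95% interval -0.04 to 0.86) in reconstituted against IKKa-null and -0.50 (-0.96 to -0.05) in reconstituted against wild-type cells, and neither was called. The reconstituted minus wild-type difference of Lamc1 passed the threshold without background correction (adjusted p = 0.0322) and with probes detected on all arrays (0.0498). Lamb1, on chromosome 12 at 31265146 to 31329644, encodes the beta 1 chain that pairs with gamma 1. Its probe gave 143.0 and 148.5 units in reconstituted, 155.8 and 151.5 in IKKa-null and 125.7 and 172.2 in wild-type cells. It was above background on 1 IKKa-null array, no comparison of it was made, and a level below the floor of this probe does not show that the RNA is absent.

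Hspg2, on chromosome 4 at 137468751 to 137570630, encodes perlecan, the large heparan sulfate proteoglycan of the basement membrane. It gave 4580 and 3064 units in reconstituted, 2667 and 2692 in IKKa-null and 3066 and 2766 in wild-type cells. The reconstituted and wild-type arrays overlapped in intensity, by 3064 against 3066 units, but not on the normalized log2 scale. None of the 3 differences was called. The reconstituted minus IKKa-null difference was 0.72 (95% interval 0.24 to 1.19, adjusted p = 0.0604 by limma), and it passed the threshold in 4 alternative settings with adjusted p-values of 0.0165 to 0.0368. The IKKa-null minus wild-type difference was -0.31 (95% interval -0.79 to 0.16) and the reconstituted minus wild-type difference 0.41 (-0.07 to 0.88).

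**Figure D3:**
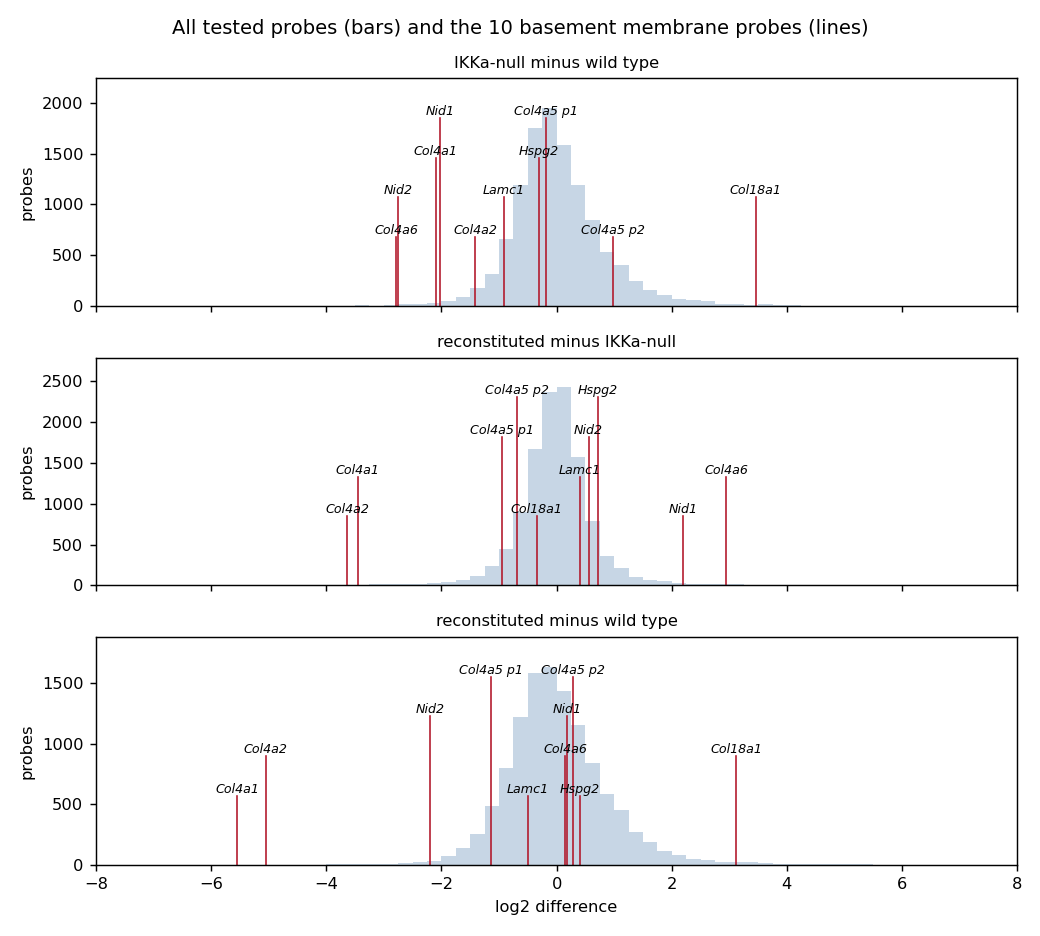
Number of all 11666 tested probes (bars, vertical axis) by log2 difference (horizontal axis), with the 10 basement membrane probes as red lines whose heights only separate the names (p1 and p2 are probes of 1 gene). Col4a1 and Col4a2 lie in the left tail in both comparisons of reconstituted cells and Col18a1 in the right tail in both comparisons with wild-type cells, while Hspg2 and the probes of Col4a5 lie nearer to the bulk.

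Taking 1 probe per gene, the members fell into a few shared patterns over the 6 arrays. These correlations describe 6 arrays and carry no test. Besides Col4a1 and Col4a2, Col4a6 and Nid1 followed each other closely (r = 0.9898, root mean square difference of the centred log2 signals 0.40), both low in IKKa-null cells. Nid2 and Lamc1 correlated with r = 0.9618, though the changes of Lamc1 were smaller (root mean square difference 0.85). Col18a1 ran against Nid2 with r = -0.9461. Col4a1 and Nid1, whose proteins bind in the same matrix, had r = -0.2113. Among the tested genes outside the list, the 5 whose centred signals lay closest to Col4a1 were Epb41l4a, Renbp, Hoxb9, Parm1 and Siglecg, at root mean square differences of 0.72 to 0.96 log2 units. Col4a2 lay closer, at 0.43. Epb41l4a, for example, had log2 signals of 4.80 and 4.89 in reconstituted, 6.43 and 6.77 in IKKa-null and 9.06 and 9.21 in wild-type cells, in the same order of groups. The 5 closest to Col18a1 were Prkar2b, Sema5a, Pax8, Eif2s3y and Kcnk2, at 0.21 to 0.25. One of these, Eif2s3y, is a Y-linked gene, with 410.4 and 302.5 units in reconstituted and 448.9 and 475.2 in IKKa-null cells, against background values of 101.6 and 120.8 in wild-type cells.

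**Figure D4:**
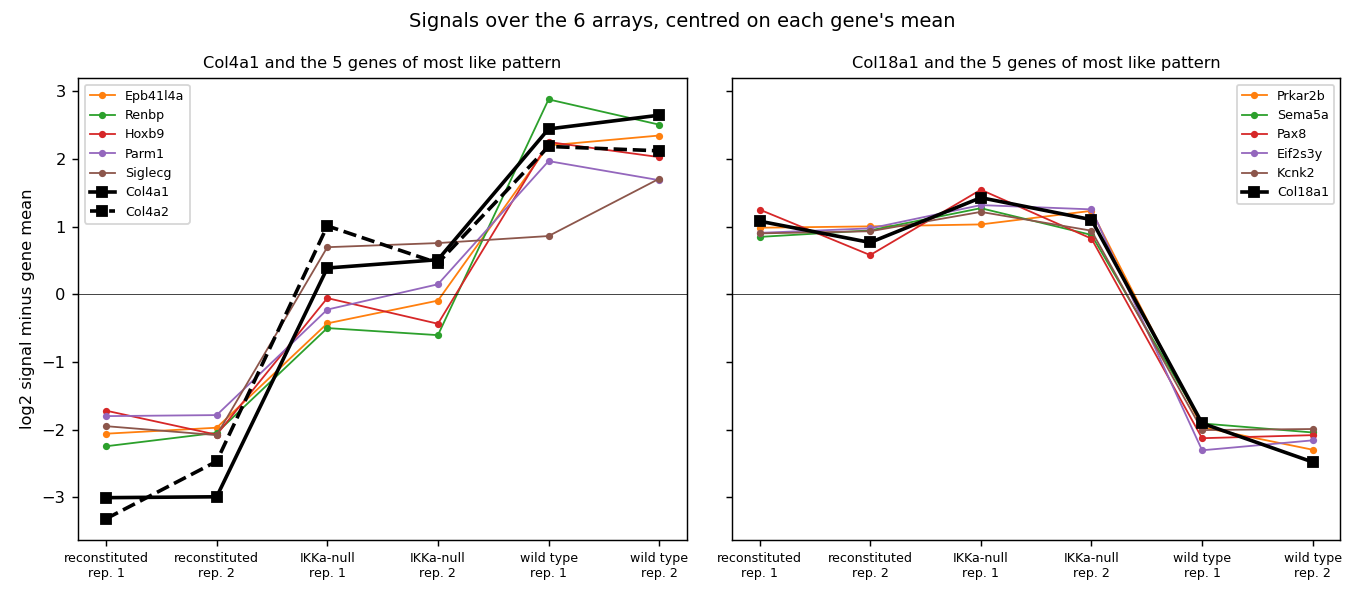
Log2 signals minus each gene's mean (vertical axis) on the 6 arrays (horizontal axis, 2 replicates per group) for Col4a1 and Col4a2 with the 5 genes closest to Col4a1 (left) and for Col18a1 with its 5 closest genes (right). Lines join the arrays only to guide the eye. Col4a1 spans a wider range than its 5 companions, while the 5 genes beside Col18a1 overlie it.

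The other structural components of basement membranes did not share 1 direction. Of 30 such genes, 29 had a probe and 13 were tested. In IKKa-null against wild-type cells 4 were called higher and 2 lower, where 28.9% of all probes were called (median -0.09, against -0.12 over all tested genes). In reconstituted against IKKa-null cells the counts were 2 higher and 4 lower, against 13.3% of all probes (median -0.37, against -0.02). In reconstituted against wild-type cells they were 4 and 4, against 36.3% of all probes (median -0.01, against -0.14). Smoc1, a calcium-binding matrix protein of the SPARC family, was detected in IKKa-null cells and at background in both other groups. It was at least 4.73-fold higher in IKKa-null cells than in wild type (adjusted p = 0.000148 by limma) and at least 4.95-fold lower in reconstituted than in IKKa-null cells (adjusted p = 0.000205 by limma). Sparc itself, a collagen-binding matricellular protein, had the order of Col18a1. It was at least 5.47-fold higher in IKKa-null and at least 4.02-fold higher in reconstituted than in wild-type cells (adjusted p = 0.000151 and 0.000272 by limma), where its probe was at background.

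Fibulins are matrix glycoproteins that bind nidogens and laminins. Fbln2 had log2 signals of 12.39 and 12.11 in reconstituted, 10.99 and 11.06 in IKKa-null and 12.33 and 12.20 in wild-type cells, the order of Nid1. It fell 2.37-fold in IKKa-null against wild-type cells and rose 2.35-fold in reconstituted against IKKa-null cells (adjusted p = 0.00371 and 0.00651 by limma). Fbln1 had 6.94 and 7.31 in reconstituted, 7.13 and 7.03 in IKKa-null and 8.89 and 8.37 in wild-type cells, the order of Nid2. It fell 2.93-fold in IKKa-null and 2.83-fold in reconstituted against wild-type cells (adjusted p = 0.00439 and 0.00429 by limma). Agrn, the heparan sulfate proteoglycan agrin, fell 2.04-fold in reconstituted against IKKa-null cells (adjusted p = 0.0471 by limma). Lamb3, a laminin chain typical of epithelia, was at background in reconstituted cells and at least 1.49-fold lower there than in IKKa-null cells (adjusted p = 0.00648 by limma). Matn2, a filament-forming adaptor protein, was at least 2.28-fold higher in reconstituted than in wild-type cells (adjusted p = 0.00549 by limma). Col4a3 and Col4a4, the remaining collagen IV chains on the array, and Lama1 were detected on 0 arrays.

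Among 19 receptors of basement membrane proteins, 18 had a probe and 12 were tested. In IKKa-null against wild-type cells 4 were called higher and 0 lower (median 0.17, against -0.12 over all tested genes). The share called in either direction was near the 28.9% of all probes, of which 14.9% were called higher and 14.0% lower. In reconstituted against IKKa-null cells 0 were called higher and 2 lower, against 13.3% of all probes (median -0.02, against -0.02). In reconstituted against wild-type cells 2 were higher and 1 lower, against 36.3% (median 0.35, against -0.14). Itga6 and Itga3 encode integrin alpha chains that form laminin receptors. Itga6 rose 10.8-fold in IKKa-null and 6.24-fold in reconstituted against wild-type cells (adjusted p = 9.13e-05 and 0.00018 by limma), and was 1.73-fold lower in reconstituted than in IKKa-null cells (adjusted p = 0.0265 by limma). Itga3 rose 4.10-fold in IKKa-null against wild-type cells and fell 4.68-fold in reconstituted against IKKa-null cells (adjusted p = 0.00079 and 0.0008 by limma). Its levels thus ran opposite to those of Nid1, with a reconstituted minus wild-type log2 difference of -0.19 that was not called. Gpc1, a cell surface heparan sulfate proteoglycan, rose 4.67-fold in IKKa-null and 5.18-fold in reconstituted against wild-type cells (adjusted p = 0.000635 and 0.000433 by limma). Sdc2, a syndecan, rose 1.89-fold in IKKa-null against wild-type cells (adjusted p = 0.00768 by limma). Ddr2, a collagen receptor kinase, fell 1.63-fold in reconstituted against wild-type cells (adjusted p = 0.0453 by limma), with 1 of the 2 reconstituted arrays not above background.

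Genes that fold, modify, export or crosslink collagen were tested for 19 of 27 members. In IKKa-null against wild-type cells 4 were called higher and 4 lower, against 28.9% of all probes (median -0.07, against -0.12 over all tested genes). In reconstituted against IKKa-null cells 1 was called higher and 0 lower, against 13.3% of all probes (median 0.39, against -0.02). In reconstituted against wild-type cells 6 were called higher and 2 lower, against 36.3% (median 0.25, against -0.14). The crosslinking lysyl oxidases moved apart: Loxl4 rose 5.44-fold and Loxl2 fell 3.36-fold in IKKa-null against wild-type cells (adjusted p = 0.000764 and 0.00788 by limma). P3h3, of the prolyl 3-hydroxylase family, rose 3.25-fold in reconstituted against IKKa-null and 6.43-fold in reconstituted against wild-type cells (adjusted p = 0.00164 and 0.000201 by limma). P3h1, of the same family, was at least 1.87-fold lower in IKKa-null cells than in wild type (adjusted p = 0.00905 by limma). Sec23a, a coat protein of the vesicles that leave the endoplasmic reticulum, rose 4.23-fold in reconstituted against wild-type cells (adjusted p = 0.00315 by limma). Loxl1 rose 2.73-fold in the same comparison (adjusted p = 0.00466 by limma). None of these 19 genes shared with Col4a1 and Col4a2 a called fall in reconstituted against IKKa-null cells. Only 6.86% of all tested probes were called lower there, so a count of 0 among 19 genes does not set this list apart.

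The list of fibrillar and other interstitial collagens was tested for 10 of 19 members. In IKKa-null against wild-type cells 0 were called higher and 2 lower, against 28.9% of all probes (median -0.29, against -0.12 over all tested genes). Col1a1 fell 2.19-fold and Col16a1 1.60-fold (adjusted p = 0.00814 and 0.0496 by limma). In reconstituted against IKKa-null cells 4 were called higher and 0 lower, against 6.45% and 6.86% of all probes (median 0.74, against -0.02), in the comparison in which Col4a1 and Col4a2 fell. Col3a1, the type III fibril chain, rose 4.24-fold there (adjusted p = 0.0157 by limma), and Col6a1, Col16a1 and Col6a2 rose 2.71-fold, 2.40-fold and 2.28-fold (adjusted p = 0.0289, 0.0104 and 0.0398 by limma). In reconstituted against wild-type cells 3 were called higher and 1 lower, against 36.3% of all probes (median 0.63, against -0.14). Col3a1 was 5.36-fold higher, with its probe not above background on 1 of the 2 wild-type arrays, and Col5a2 2.14-fold lower (adjusted p = 0.00452 and 0.0141 by limma). Whether the interstitial and the basement membrane collagens differ as groups was not tested.

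**Figure D5:**
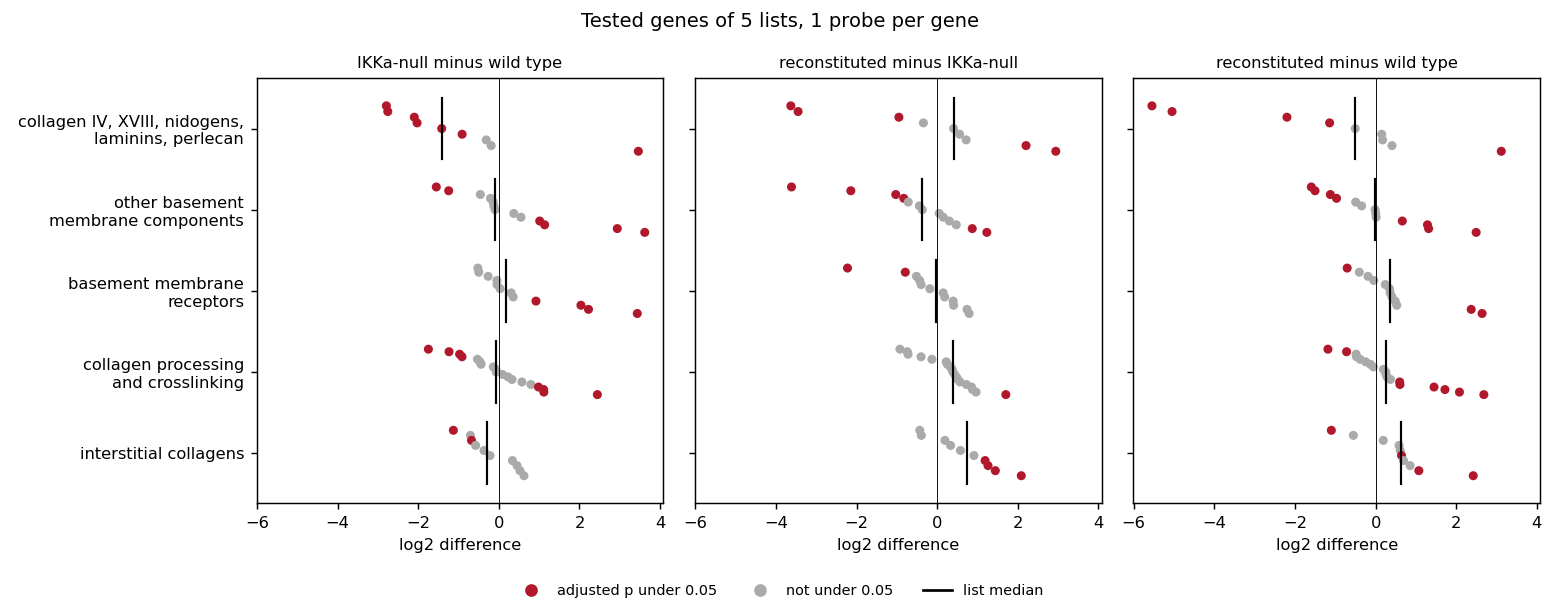
Log2 differences (horizontal axis) of the tested genes of 5 lists (rows), 1 probe per gene, in the 3 comparisons. Each point is a gene, red where its adjusted p was under 0.05, and the black bar is the median of the list. The basement membrane genes lie on both sides of 0 in every panel. In IKKa-null minus wild type Col18a1 alone lies to the right of 0, and the median of the list is -1.42. The interstitial collagens called in the middle panel all lie to the right of 0.

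Markers of cell types were read beside these results. In bulk RNA, fewer cells of a type and less RNA per cell cannot be told apart. Summed intensities of markers, here and below, were not corrected for background and include probes that were not detected. Each such probe adds background signal to a sum, where the median background probe gave 100.8 to 114.45 units. Of 10 fibroblast markers, 8 and 8 were detected on the reconstituted, 9 and 9 on the IKKa-null and 8 and 6 on the wild-type arrays, with summed intensities of 19160 and 15060 units in reconstituted, 7086 and 7526 in IKKa-null and 4956 and 5468 in wild-type cells. Thy1 was 39.6-fold, Dcn 21.4-fold and Pdgfra 18.5-fold higher in reconstituted than in IKKa-null cells (adjusted p = 0.000431, 0.00382 and 7.39e-05 by limma). Lum was at background on all arrays. Reconstituted cells, lowest in Col4a1 and Col4a2, were thus highest in Thy1, Dcn and Pdgfra. Pdgfrb, Col1a2 and Col3a1 were also highest there in mean intensity. Col1a1 was highest in wild-type cells, at 1332 units against 897.3 in reconstituted cells. S100a4 was highest in IKKa-null cells, at 4926 units against 3521 in reconstituted cells. Vim, read by 1 probe, was close to the detection floor, at 154.2 units in reconstituted, 168.6 in IKKa-null and 144.8 in wild-type cells. For Vim and the other markers, as for Lamb1, a probe at or near background does not show that the RNA is absent. Endothelial cells make much collagen IV. Of 10 endothelial markers 1 to 3 were detected per array, summed intensities were 2376 and 1836 units in reconstituted, 1661 and 1706 in IKKa-null and 2531 and 2650 in wild-type cells, and Pecam1, Cdh5, Tek, Tie1, Kdr, Vwf and Esam were at background on every array. Flt1, a VEGF receptor, averaged 890.2 units in reconstituted, 501.8 in IKKa-null and 1552 in wild-type cells, and was 3.88-fold lower in IKKa-null cells than in wild type (adjusted p = 0.000907 by limma). It was 2.16-fold higher in reconstituted than in IKKa-null cells and 1.80-fold lower than in wild-type cells (adjusted p = 0.0124 and 0.015 by limma). Eng, a TGF-beta co-receptor, was at background in wild-type cells, and at least 1.88-fold higher in IKKa-null and 2.57-fold higher in reconstituted cells (adjusted p = 0.00196 and 0.000764 by limma). Of 9 epithelial markers with a probe, 0 to 3 were detected per array. Their sums were 1092 and 1007 units in reconstituted, 1278 and 1307 in IKKa-null and 1393 and 1633 in wild-type cells, with Cdh1, Krt5, Krt8, Krt18, Ocln and Dsp at background everywhere. The mean intensities of the keratins Krt14 and Krt19 had the order of Col4a1 and Col4a2. They were 108.5 and 105.6 units in reconstituted cells, at background, 163.1 and 305.4 in IKKa-null cells and 330.5 and 322.6 in wild-type cells. For Krt19 the normalized IKKa-null and wild-type signals overlapped, unlike those of Col4a1 and Col4a2. Both keratins were called lower in reconstituted than in IKKa-null cells (adjusted p = 0.00726 for Krt14 and 0.00089 for Krt19 by limma). Both were also called lower than in wild-type cells (adjusted p = 0.000124 and 0.000416 by limma). Krt14 in IKKa-null cells lay close to the detection floor, so no fold is given between reconstituted and IKKa-null cells. Krt14 was also 3.63-fold lower in IKKa-null cells than in wild type (adjusted p = 0.00081 by limma), while for Krt19 that difference of -0.25 was not called.

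Of 8 smooth muscle and pericyte markers, 2 were detected on each reconstituted and IKKa-null array and 3 on each wild-type array, with Myh11, Cnn1, Tagln, Des and Rgs5 at background everywhere. Mcam had the order of Nid2, detected in wild-type cells alone, with means of 150.1 units in reconstituted, 140.8 in IKKa-null and 337.3 in wild-type cells. It was at least 3.90-fold lower in IKKa-null and 3.37-fold lower in reconstituted cells than in wild type (adjusted p = 0.00031 and 0.000381 by limma). Cspg4, a pericyte proteoglycan, was 3.63-fold higher in reconstituted than in IKKa-null cells (adjusted p = 0.00449 by limma). The sums were 11090 and 8131 units in reconstituted, 1222 and 2046 in IKKa-null and 5039 and 4475 in wild-type cells, and Acta2 was 17.9-fold higher in reconstituted than in IKKa-null cells (adjusted p = 0.00251 by limma). Parietal endoderm is an embryonic cell type rich in collagen IV, laminin and nidogen. Of its 8 markers, 3 to 5 were detected per array. They summed to 5996 and 3758 units in reconstituted, 3117 and 3227 in IKKa-null and 3407 and 3625 in wild-type cells, with Sox7, Sox17 and Afp at background on all arrays. Gata6, a transcription factor of that lineage which other mesodermal cells also express, fell 11.0-fold in IKKa-null against wild-type cells (adjusted p = 0.00213 by limma). It rose 3.73-fold in reconstituted against IKKa-null cells (adjusted p = 0.0311 by limma), with 1 of the 2 IKKa-null arrays not above background. It was 2.94-fold lower in reconstituted than in wild-type cells (adjusted p = 0.0287 by limma). Gata4 was called lower than wild type in both other groups, near the floor in reconstituted cells. Dab2 was 1.70-fold higher in reconstituted than in wild-type cells (adjusted p = 0.0198 by limma). Dab2 and Pdgfra, which is also on the fibroblast list, averaged 2456 and 1425 units in reconstituted cells, much of the sum there. Of 4 Schwann cell and glial markers with a probe 0 were detected, with sums of 448.0 to 494.6 units in reconstituted, 442.4 to 484.6 in IKKa-null and 476.6 to 503.7 in wild-type cells. Of 4 macrophage and blood markers 0 to 2 were detected, with sums of 495.6 to 521.8 units in reconstituted, 571.5 to 694.7 in IKKa-null and 435.9 to 533.3 in wild-type cells. The part of any of these markers in the basement membrane results was not tested.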

How the data were processed

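Expression was measured on 6 bead arrays, 1 per sample, with 2 samples in each of 3 groups taken from the sample titles. The deposited array files hold 1 average bead intensity for each of 46120 targets, exported from BeadStudio with no normalization and no error model, per the file headers. The deposited series matrix holds a second set of intensity values, which equal the array intensities once those are quantile normalized without a log. The labels and headers do not say how the authors made it. Each target took its gene name from the annotation of a matrix probe with equal values: 46116 targets matched 1 matrix probe to 7 significant digits and 4 did not. A single symbol was given for 29534 targets and several for 11, which were not named. Gene identifiers of 29476 targets were found in the RefSeq gene table of GRCm38.p6.

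Background was corrected with nec of limma 3.58.1 (R 4.3.3, offset 16), with 394 background probes as negative controls: 352 targets of immune-receptor segments and 42 controls, either spikes or non-mouse sequences. Quantile normalization and log2 followed, so tests ran on log2 values computed here from the deposited intensities. A linear model of group means was fitted over the 6 arrays (lmFit and eBayes, 3 residual degrees of freedom and 3.97 from the prior), two-sided, with Benjamini-Hochberg adjustment over 11666 probes of 7408 named genes. The fit was checked on simulated data with the fitted spread, in which 200 of 11666 probes were changed, fewer than were called here. It recovered 2.46% to 3.21% of 1.5-fold, 40.9% to 44.3% of 2-fold and 97.7% to 98.5% of 4-fold changes. A difference that was not called is thus not shown to be absent. In lists, the probe with the highest mean stood for a gene with several. From each list, up to 4 called genes per comparison with the largest absolute difference were named. The genes, lists and tests were chosen with earlier results of these data known. Alternatives were other background corrections, normalizations and filters, the series matrix, fits of 4 arrays, the replicate block, and leaving out each array, with the normalization and tested probes of all 6 arrays kept. Signal over background set the depth, and precision is limited by how few arrays there are. No protein sequences or genome were used here.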

Additional observations from a re-analysis of the deposited data

How the results depend on the processing

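Over 234 results of member probes and comparisons under settings with all 6 arrays, 222 kept their direction and side of the threshold. Of the others, 1 lost its call, 11 gained one and 0 reversed. Changing the filter or adding the replicate block left the differences as they were, so no direction could reverse there. The series matrix gave nearly the same values as no background correction, so they are not separate checks. With only the 4 arrays of a comparison in the fit, which leaves the difference itself as it is, 30 of 30 kept both. Over 120 results with 1 of the arrays compared left out, 107 kept both, 9 lost their call, 2 gained one and 2 reversed, of differences that were not called. There, the lone array of a group is assumed to vary like the other groups. Without wild-type replicate 2 the reconstituted minus wild-type difference became -0.33 for Col4a5 probe 2 and -0.20 for Col4a6 probe 1 (up to 0.91 and 0.50 without other arrays), and the cause was not tested. The count of called member probes lay between 5 and 7 for IKKa-null minus wild type, 4 and 5 for reconstituted minus IKKa-null and 5 and 6 for reconstituted minus wild type with 1 array left out. Called probes over all genes ranged over 1485 to 3490, 545 to 1265 and 2074 to 3746 in the same order of comparisons, where fewer arrays enter. Median scaling gave 1892 called probes (70.3% higher, against 51.7%), 923 (37.8% higher, against 48.5%) and 2361 (51.3% higher, against 47.9%), and the cause was not tested. It moved the median of all probes to 0.04, -0.17 and -0.13, and the differences above are not corrected for that shift. Cyclic loess made the share called higher 60.2% for IKKa-null minus wild type and 56.5% for reconstituted minus wild type. The replicate numbers are shared by the groups but only 2 exist, and the deviations of same-numbered arrays correlated with r = 0.37, 0.05 and 0.30 (reconstituted with IKKa-null, reconstituted with wild type, IKKa-null with wild type), so the numbers were not taken as pairing the samples. With the replicate block, 8, 5 and 5 member probes and 3609, 1668 and 4515 probes over all genes were called. Probes close to the background, such as those of Lamb1 and of Col4a1 in reconstituted cells, give only upper limits of their levels.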
